A study of Mus musculus with 41 samples.

Results

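Genomic imprinting was examined in sorted mouse regulatory T (Treg) cells through 44 genes that the literature lists as imprinted or as close neighbours of imprinted genes. They were chosen by name, and every one with a row in the deposited count table was used, without a filter on expression. Of the 44, 39 were among the 19434 genes of the table; H19, Meg3, Rian, Mirg and Kcnq1ot1, the long noncoding RNAs of the list, were not analysed here. The comparison asked whether loss of Uhrf1 raised these genes.

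The study sequenced RNA from 41 libraries in a pair of experiments, with all mice at 8 weeks of age. In the chimera experiment, CD25hi Foxp3-YFP+ Treg cells came from females that were Uhrf1 fl/fl Foxp3 +/YFP-Cre (chimeric knockout, n = 4 libraries) or Uhrf1 +/+ Foxp3 YFP-Cre/YFP-Cre (control, n = 4). Cre and YFP sit on the X chromosome, so in the heterozygous knockouts the sorted cells are those that use the Cre-bearing X, and they develop beside Treg cells with intact Uhrf1, whereas all control Treg cells carry Cre. The pulse-chase experiment used Uhrf1 fl/fl or Uhrf1 +/+ mice that also carried Foxp3 GFP-CreERT2, a Cre that works only with tamoxifen, and Rosa26Sor CAG-tdTomato, a reporter that is switched on for good by Cre. After 2 weeks on tamoxifen chow and a further 4 weeks on standard chow, 3 populations were sorted in each genotype (n = 6 libraries for fl/fl and 5 for control): labeled Treg cells (GFP and tdTomato positive), ex-Foxp3 cells (GFP negative, tdTomato positive) and post-tamoxifen Treg cells (GFP positive, tdTomato negative). The last population showed no reporter recombination, so its Uhrf1 alleles were floxed without a mark that Cre had acted.

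An imprinted gene is expressed from the copy of one parent, and the parental origin is kept as DNA methylation at a control region set in the egg or the sperm. At most control regions the maternal copy is methylated, and genes such as Mest, Peg3, Snrpn, Nap1l5, Mcts2, Zrsr1 and Impact are read from the unmethylated paternal copy. Igf2r follows the opposite pattern: its paternal copy is silenced by the antisense RNA Airn, whose own promoter is methylated on the maternal copy. Uhrf1 binds half-methylated DNA behind the replication fork and brings in the methyltransferase Dnmt1, so that methylation is copied to the daughter strand. Many imprinted genes act in the embryo and placenta and are low in blood cells, whereas others, such as Gnas, Ube3a, H13 and Commd1, are read widely.

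Upstream windows of 4 members are printed because they cover the kinds of gene compared: Igf2r and Zrsr1, which were counted in every library, and Mest and Nap1l5, which were nearly or fully without reads. Each is the 250 bases before a RefSeq transcription start in GRCm38.p6, read 5′ to 3′ on the gene's strand. Capitals mark TGCCGC or its complement GCGGCA, the core of the site bound by ZFP57, a zinc finger protein that protects methylated imprints.
Igf2r, chr17:12769707-12769956, minus strand: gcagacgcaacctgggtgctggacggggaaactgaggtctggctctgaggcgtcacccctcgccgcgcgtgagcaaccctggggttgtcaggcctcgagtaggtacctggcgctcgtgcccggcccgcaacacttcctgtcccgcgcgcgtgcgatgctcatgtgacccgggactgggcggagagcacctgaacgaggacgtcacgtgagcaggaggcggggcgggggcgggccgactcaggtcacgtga
Zrsr1, chr11:22971755-22972004, plus strand: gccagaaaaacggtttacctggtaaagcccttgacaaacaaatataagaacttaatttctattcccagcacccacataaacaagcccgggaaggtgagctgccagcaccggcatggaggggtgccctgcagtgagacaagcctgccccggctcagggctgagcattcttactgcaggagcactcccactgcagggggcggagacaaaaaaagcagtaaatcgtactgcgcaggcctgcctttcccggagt
Mest, chr6:30737800-30738049, plus strand: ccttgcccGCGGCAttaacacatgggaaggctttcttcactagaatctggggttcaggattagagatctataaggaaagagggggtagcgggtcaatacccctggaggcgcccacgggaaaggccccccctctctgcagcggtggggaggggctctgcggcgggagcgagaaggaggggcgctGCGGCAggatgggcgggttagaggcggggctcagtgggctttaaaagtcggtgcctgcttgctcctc
Nap1l5, chr6:58907127-58907376, minus strand: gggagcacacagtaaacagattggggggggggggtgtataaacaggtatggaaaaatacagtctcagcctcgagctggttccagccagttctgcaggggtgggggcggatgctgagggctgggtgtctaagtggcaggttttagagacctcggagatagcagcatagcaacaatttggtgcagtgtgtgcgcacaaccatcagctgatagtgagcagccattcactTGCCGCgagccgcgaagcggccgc
The Igf2r window held 27 CpG dinucleotides, that of Mest 14, that of Nap1l5 10 and that of Zrsr1 8. Mest had 2 of the hexamers, Nap1l5 had 1, and the windows of Igf2r and Zrsr1 had 0. For each of the 37 members with a RefSeq window the one richest in CpG was taken; the median was 14 CpG, against 6 over all 32851 windows, and 7 of the 37 held the hexamer on either strand, against 8.68% of all windows. Choosing the richest window raises the members' counts, and control regions often lie outside these windows. A match is a run of letters and not a bound site.

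Reads were found for 36 of the 39 members. Those counted in all 41 libraries numbered 15 (38.5% of the 39, against 44.8% of all genes in the table): Inpp5f, Zrsr1, Impact, Mcts2 and Plagl1 among the paternally expressed genes with maternal methylation, and Gnas, Igf2r, Ube3a, H13, Commd1, Trappc9, Cd81, Copg2, Blcap and Tssc4 among the maternally expressed genes and neighbours. A further 21 members were counted in some libraries. Usp29, Nap1l5 and Phlda2 had 0 counts, which over all libraries allows a level of up to 0.0287 CPM, the count scaled by library size (this limit of 3 counts covers counting error only). None of the 4 paternally expressed genes with a paternally methylated control region (Igf2, Dlk1, Rasgrf1, Zdbf2) was counted throughout. The classic imprinted genes of the embryo had few counts: over all 41 libraries Mest had 14 counts, Peg3 16, Peg10 11, Snrpn 32, Grb10 7 and Dlk1 2. Some rows overlap another gene of the table, as Snrpn does Snurf, Nap1l5 Herc3 and Mest Copg2. How reads were assigned there is not known, so low counts in such rows need not mean low expression.

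**Figure D1:**
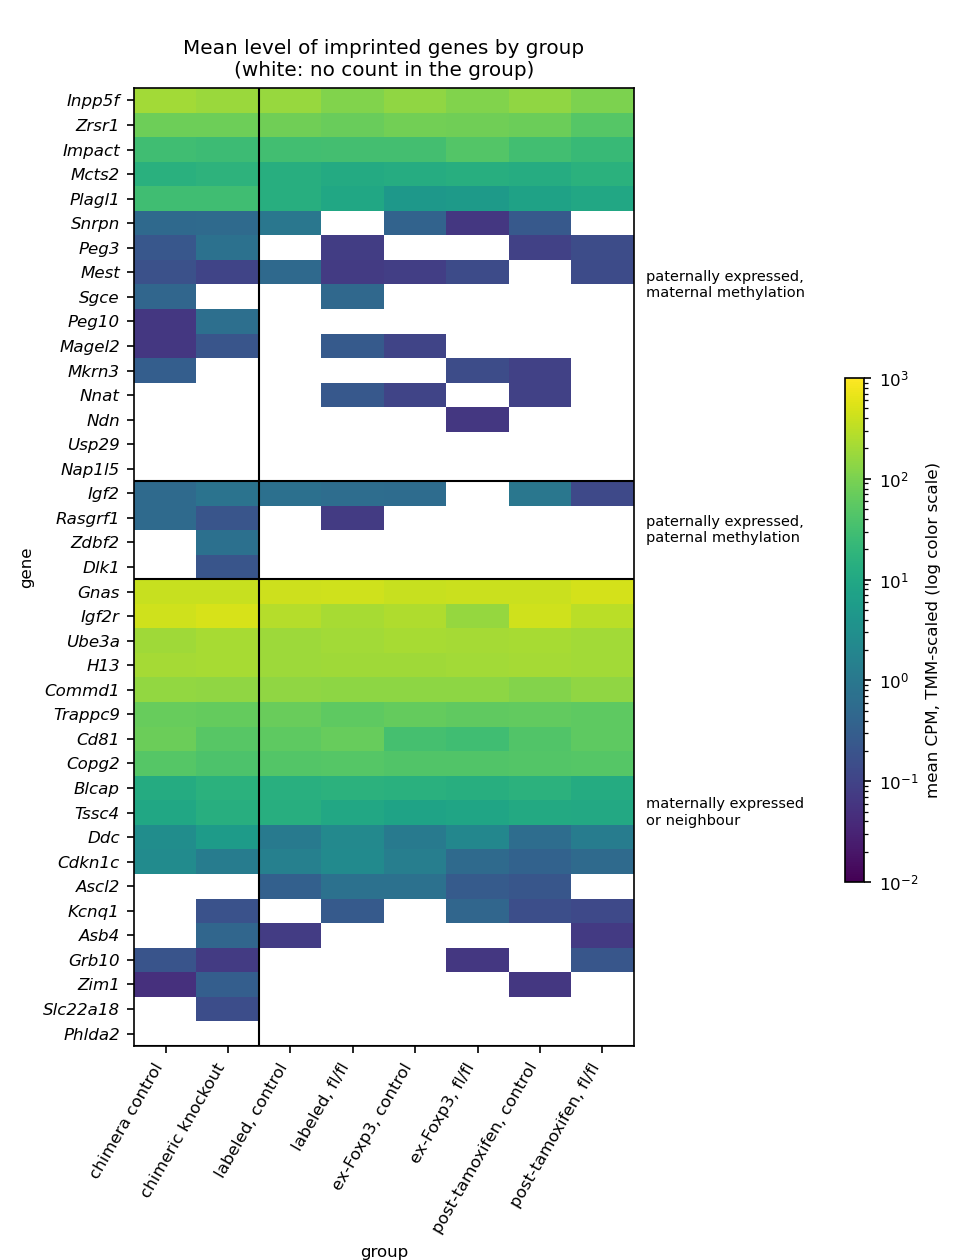
Mean level of the 39 imprinted genes (rows, in 3 role classes) in the 8 groups (columns), as CPM of the TMM-scaled library on a log color scale, with white for a mean of 0. CPM is not divided by gene length, so rows are read across groups and not against each other. The 15 members with counts in every library are colored in all groups. Among them Plagl1 changes from 4.68 CPM in control ex-Foxp3 cells to 29.7 CPM in chimeric knockouts. Ddc (at most 5.65 CPM) and Cdkn1c (at most 2.54 CPM) are colored in all groups too, and each other member is white in at least 1 group.

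Total counts were 2403189 to 5709702 per chimera library and 781437 to 3435802 per pulse-chase library. Uhrf1 itself stood at 32.5, 22.5, 23.1 and 22.1 CPM in chimera controls 1 to 4 and at 12.0, 8.68, 9.21 and 22.3 CPM in chimeric knockouts 1 to 4 (log2 fold change -0.94 ± 0.23 (SE), edgeR adjusted p = 0.00252). The library labelled knockout 4 thus held as many Uhrf1 reads as 3 of the controls. Uhrf1 passed in no pulse-chase genotype comparison. In labeled cells it ran from 10.3 to 88.2 CPM in fl/fl (median 44.1, n = 6) and was 59.2, 63.2, 104, 15.4 and 11.3 CPM in controls 1 to 5 (-0.16 ± 0.60, adjusted p = 1). In ex-Foxp3 cells it ran from 6.99 to 26.2 CPM (median 15.1) and was 24.1, 34.3, 14.9, 7.28 and 16.3 CPM in controls (-0.20 ± 0.68, adjusted p = 1). In post-tamoxifen cells, which carry no Cre mark, it had a higher mean in fl/fl: libraries 1 to 3 held 123 to 155 CPM and libraries 4 to 6 held 18.9 to 33.5 CPM, against 59.0, 22.1, 36.4, 17.7 and 13.7 CPM in controls (1.62 ± 0.64, adjusted p = 0.160). Reads outside the deleted exons, which the sources used here do not name, would not show the deletion. Foxp3 itself averaged 406 CPM in labeled, 109 CPM in ex-Foxp3 and 380 CPM in post-tamoxifen control cells, and 379, 61.1 and 345 CPM in fl/fl cells. Post-tamoxifen control 2 and fl/fl 3 stood apart, at 123 and 127 CPM of Foxp3, inside the range of control ex-Foxp3 cells (79.2 to 151 CPM); their 5 summed Treg markers, at 1433 and 1056 CPM, were below the 1575 to 2618 CPM of the other post-tamoxifen libraries. Chimera controls 3 and 4 held 57.9 and 58.3 CPM of summed B and plasma cell markers (0.403 to 5.56 in the other chimera libraries) and 415 and 362 CPM of G2/M cell division transcripts (88.2 to 224 in the others). Chimera control 1 held 430 CPM of Y-linked reads although the mice are labelled female, and so did pulse-chase controls 2 and 3 in every population (318 to 455 CPM, at most 2.33 in the rest). Post-tamoxifen fl/fl libraries 1 to 3 held 157 to 537 CPM of B and plasma cell markers, and post-tamoxifen libraries of both genotypes held 9.51 to 451 CPM of myeloid markers.

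In the fit of all chimera libraries edgeR called 0 imprinted genes higher and 1 lower in knockout Treg cells. Counts in at least 1 chimera library were present for 33 members, and edgeR called 1 of them at an adjusted p under 0.05, Cd81, with 6 at an unadjusted p under 0.05 (2.55% of the 15530 genes tested were called, 0.908% higher and 1.64% lower). Here and below, counts at an unadjusted p under 0.05 have no share over all genes beside them. They are not read as a result about the members. The median log2 fold change of the 16 members with a mean of at least 10 counts was 0.0095, beside 0.0050 over the 9604 genes at that depth. Of the 12 tested genes that are read from the paternal copy under maternal methylation, 7 had a positive and 5 a negative fold change, and 0 were called by edgeR or DESeq2.

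Cd81 (mm10, chromosome 7, 143052739 to 143067934, plus strand; its row carries an ID that GENCODE gives to R74862) encodes a tetraspanin and lies in the Kcnq1 domain, where its imprinting is known from the placenta. It was at 103, 66.9, 68.8 and 65.2 CPM in controls 1 to 4 and at 51.6, 36.5, 57.4 and 59.8 CPM in knockouts 1 to 4. Every knockout lay below every control, and control 1, the library with Y-linked reads, was far above the rest. The log2 fold change was -0.58 ± 0.13 (SE, adjusted p = 0.00102), or 0.669 times the control level. The call was lost without control 1 (-0.39, adjusted p = 0.204), without knockout 2 (-0.44, 0.0927), with a filter on low counts (-0.59, 0.0654) and with DESeq2 (-0.57, 0.0833). Without controls 3 and 4 it held (-0.73, adjusted p = 0.000258).

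Igf2r (chromosome 17, 12682406 to 12769664, minus strand), the receptor that clears insulin-like growth factor 2 and sorts lysosomal enzymes, was at 464, 442, 417 and 412 CPM in controls and at 558, 514, 483 and 416 CPM in knockouts. Knockouts 1 to 3 were above all controls, and knockout 4 was among them (0.18 ± 0.08, adjusted p = 0.258). Without knockout 4, the library with control-level Uhrf1 reads, Igf2r was called higher (0.26, adjusted p = 0.0410). Inpp5f (chromosome 7, 128611328 to 128696425, plus strand), an inositol phosphatase with a paternally expressed short form, stood at 192, 219, 194 and 218 CPM against 184, 171, 186 and 181 CPM. Its groups did not overlap, but the difference did not pass the test (-0.19 ± 0.09, adjusted p = 0.375). For Ube3a, a ubiquitin ligase whose imprinting is known from neurons, controls held 197, 187, 178 and 197 CPM and knockouts 227, 230, 214 and 203 CPM (0.20 ± 0.09, adjusted p = 0.303). Among the 16 members at this depth, groups did not overlap for Ddc and Ube3a in the higher direction (background 3.55%) and for Inpp5f and Cd81 in the lower (4.6%). Ddc, the decarboxylase that makes dopamine and serotonin, had few reads, 8 to 16 per control library and 11 to 26 per knockout library (1.01 ± 0.53, adjusted p = 0.443).

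Several well-known members showed near equal means in the chimera. Zrsr1, an intronless gene inside an intron of Commd1 and related to a splicing factor subunit, was at 61.7, 73.8, 96.7 and 86.5 CPM in controls and 88.1, 70.8, 71.2 and 87.5 CPM in knockouts (0.01 ± 0.12). H13, a signal peptide peptidase whose intron holds Mcts2, was at 215, 209, 218 and 220 CPM against 207, 234, 221 and 208 CPM (0.01 ± 0.09). Gnas, which encodes the stimulatory G protein alpha subunit, was at 423, 379, 394 and 348 CPM against 355, 359, 390 and 413 CPM (-0.03). In each of these 3 the genotypes overlapped. Mcts2, a retrogene copy of Mcts1, had 11.7, 18.6, 10.9 and 18.02 CPM in controls and 18.9, 21.4, 16.8 and 11.6 CPM in knockouts (0.21 ± 0.24, adjusted p = 0.704), and Impact, which limits the kinase Gcn2 and so the response to amino acid shortage, had 36.6, 26.03, 25.3 and 30.7 CPM against 37.5, 18.3, 28.1 and 21.7 CPM (-0.18, adjusted p = 0.697).

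**Figure D2:**
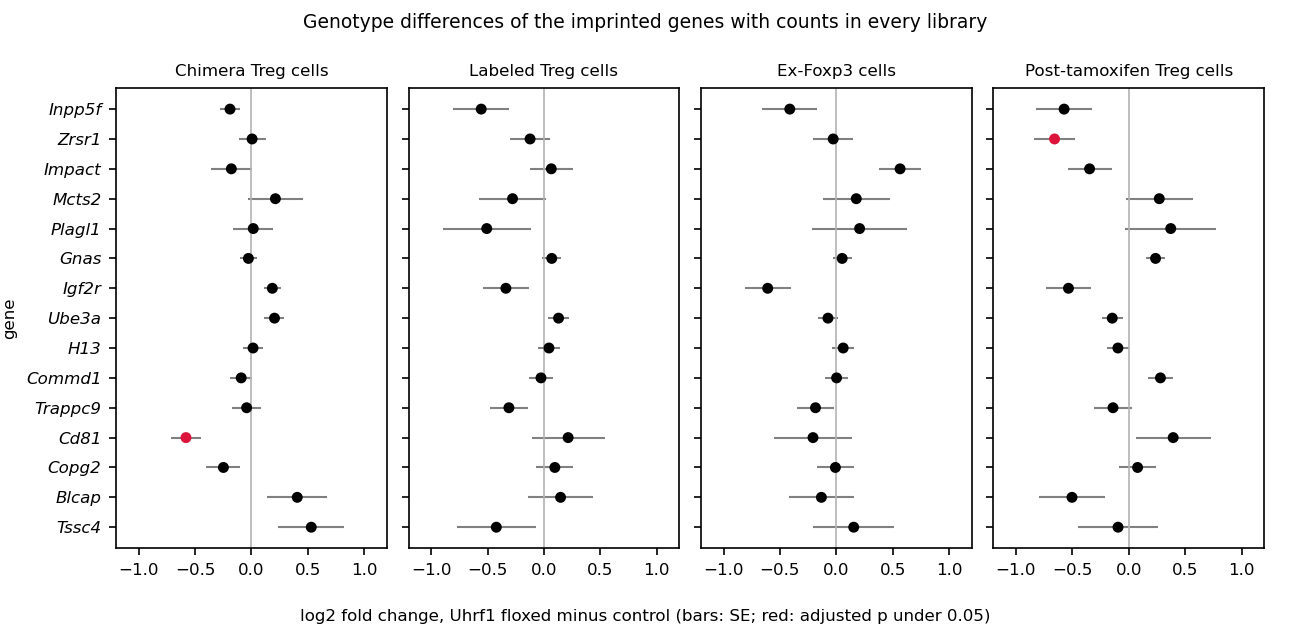
Log2 fold change of Uhrf1 floxed against control (x axis, points, with SE bars) for the 15 members counted in every library (rows), in the chimera and the 3 pulse-chase populations. Red points passed an adjusted p under 0.05: Cd81 in the chimera (-0.58) and Zrsr1 in post-tamoxifen cells (-0.66), both to the left of 0.

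In labeled Treg cells of fl/fl mice, in which Cre had marked the cells, no imprinted gene passed edgeR's test in either direction. Of the 32 members with a pulse-chase count, 0 were called by edgeR and 0 by DESeq2, and 3 had an unadjusted p under 0.05 (0.0066% of 15161 genes were called by edgeR, 0% higher and 0.0066% lower). The median of the 15 members with a mean of at least 10 counts was -0.026, beside -0.0013 over 9213 genes, with a range of -0.56 to 0.21, and groups overlapped for all 15 (background 0.662% higher, 0.782% lower). Inpp5f ran from 90.9 to 144 CPM in fl/fl (median 114, n = 6) and was 155, 162, 136, 217 and 175 CPM in controls 1 to 5. Only the highest fl/fl library overlapped the lowest control. Igf2r ran from 182 to 272 CPM in fl/fl (median 213) and was 271, 294, 287, 259 and 268 CPM in controls; 1 fl/fl library, number 4, reached the control range. In the fit of all pulse-chase libraries neither passed (Inpp5f -0.56 ± 0.25, adjusted p = 0.582; Igf2r -0.34 ± 0.21, 0.666). With the spread taken from the labeled groups alone Inpp5f passed (-0.55, adjusted p = 0.0348) and Igf2r did not (-0.33, 0.207). Same-numbered libraries of the genotypes deviated together here, and with number as a block both were called lower (Inpp5f -0.65, adjusted p = 4.9e-06; Igf2r -0.43, 0.00116), although the same number in the 2 genotypes is not the same mouse. The blocked fit also treated the populations of 1 number and genotype as independent samples, so its p-values may be too small.

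In ex-Foxp3 cells, which had carried Cre and then lost Foxp3, edgeR called 0 of the 32 members, DESeq2 called 0, and 4 had an unadjusted p under 0.05 (0.0792% of all genes were called by edgeR, 0.0066% higher and 0.0726% lower). Igf2r was the 1 of 15 members whose groups did not overlap (background 1.31% lower and 0.933% higher): fl/fl libraries ran from 125 to 206 CPM (median 169) and controls were 277, 260, 255, 233 and 239 CPM. Every fl/fl library was below every control, and the difference did not pass over all genes (-0.61 ± 0.21, adjusted p = 0.339). With the spread taken from the ex-Foxp3 groups alone it passed (-0.61, adjusted p = 0.00250). Impact ran from 33.8 to 53.2 CPM in fl/fl (median 47.8) and was 26.8, 35.5, 32.9, 31.2 and 31.5 CPM in controls. All but 1 fl/fl library were above the controls, and this was the highest fold change of a well-counted member in that population (0.56 ± 0.19, adjusted p = 0.290; 0.0473 with the compared groups alone). Zrsr1 overlapped fully, 69.3 to 94.0 CPM (median 85.0) against 72.8, 88.6, 87.5, 85.3 and 95.2 CPM (-0.03 ± 0.18, adjusted p = 1).

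In post-tamoxifen Treg cells, which carried no Cre mark, 1 of the 32 members was called and it was lower: Zrsr1 (chromosome 11, 22972005 to 22976496, plus strand, inside Commd1 on the other strand; 3.58% of all genes were called, 1.97% higher and 1.61% lower). Its fl/fl libraries 1 to 6 were 36.4, 36.6, 36.3, 56.2, 66.1 and 53.3 CPM, and its controls 71.6, 96.0, 71.3, 59.2 and 71.9 CPM. Libraries 1 to 3 of fl/fl were the lowest of all 41, and number 5 overlapped the controls. The log2 fold change was -0.66 ± 0.18 (SE, adjusted p = 0.0336). The call was lost without control 1, 2, 3 or 5, without fl/fl 1, 2 or 3 (adjusted p over all single libraries left out 0.0152 to 0.109), with the compared groups alone (0.0728) and without controls 2 and 3 (-0.51, 0.204). It was also lost without control 2 and fl/fl 3, the post-tamoxifen libraries with the lowest Foxp3 and summed Treg markers, and with the least and the most myeloid markers of these cells (-0.47, 0.207). Summed B and plasma cell markers were high in the same 3 fl/fl libraries (5 of 5 measured markers present, 157 to 537 CPM; at most 8.46 in fl/fl 4 to 6 and 47.3 in controls), and their part in the result was not tested.

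Gnas (chromosome 2, 174284320 to 174346744, plus strand) and Commd1 (chromosome 11, 22834744 to 22982382, minus strand), a regulator of copper transport and NF-kB, had positive fold changes in these cells. Gnas ran from 449 to 505 CPM in fl/fl (median 475) and was 377, 340, 456, 423 and 425 CPM in controls, with 1 control inside the fl/fl range (0.24 ± 0.08, adjusted p = 0.0969; 0.0475 with a filter on low counts, 0.0105 with DESeq2). Commd1 ran from 132 to 158 CPM (median 150) and was 94.2, 117, 118, 140 and 133 CPM in controls (0.28 ± 0.11, adjusted p = 0.131; 0.0450 with DESeq2). Igf2r ran from 174 to 433 CPM (median 298) against 362, 257, 561, 487 and 505 CPM (-0.53 ± 0.20, adjusted p = 0.141; called without control 2, -0.68, 0.0382, or without fl/fl 6, -0.67, 0.0453). Inpp5f ran from 57.0 to 157 CPM (median 95.2) against 117, 162, 172, 163 and 142 CPM (-0.57 ± 0.25, adjusted p = 0.205). For these the genotypes overlapped, as for all 15 well-counted members (background 1.48% higher, 1.83% lower), whose median was -0.097 beside 0.0023 over all genes at that depth. Of the 13 tested genes read from the paternal copy under maternal methylation, 4 had positive and 6 negative fold changes here, against 5 and 6 in labeled and 6 and 5 in ex-Foxp3 cells, the rest being at 0.

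**Figure D3:**
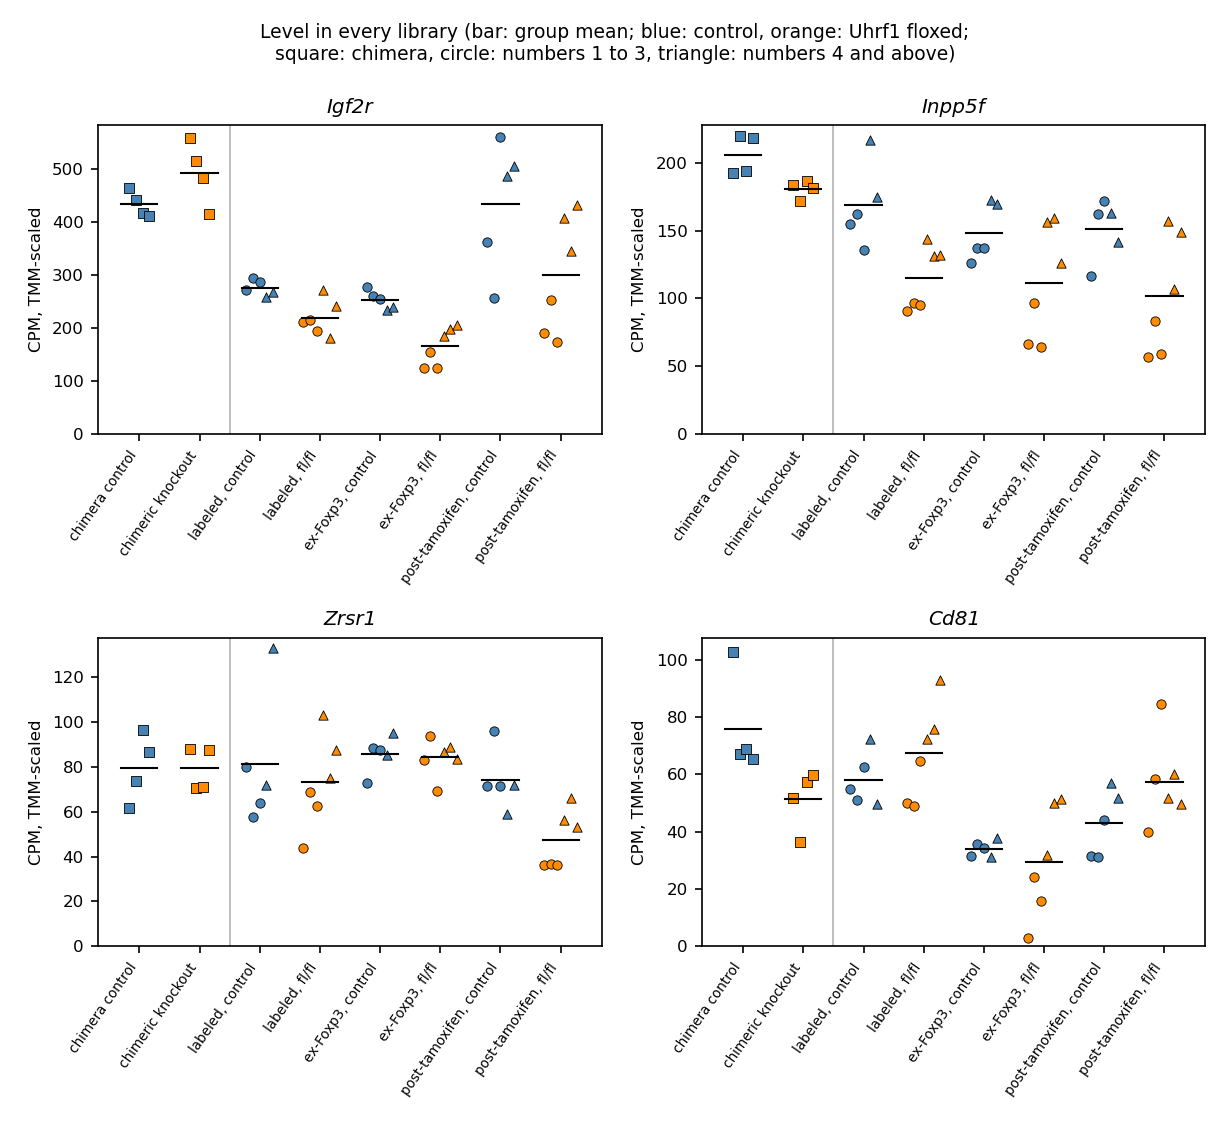
CPM (y axis, from 0) of Igf2r, Inpp5f, Zrsr1 and Cd81 in every library by group (x axis), with a bar at the group mean, control in blue and Uhrf1 floxed in orange. Squares are chimera libraries; in the pulse-chase fl/fl groups the circles (numbers 1 to 3) of Inpp5f sit below the triangles (numbers 4 and above) in every population.

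Igf2r and Inpp5f had negative fold changes in fl/fl cells of all 3 pulse-chase populations, and the size differed between library numbers; that difference in size was not itself tested. The sets also differ in their controls: 2 of the 3 controls in numbers 1 to 3 (numbers 2 and 3) held 318 to 455 CPM of Y-linked reads while every fl/fl library held 0, and numbers 4 and above have only 2 controls. Y-linked reads and genotype thus partly coincide in numbers 1 to 3, and their parts in these values were not tested. Among numbers 1 to 3, Igf2r was called lower in labeled (-0.45, adjusted p = 0.0386), ex-Foxp3 (-0.95, 2.3e-09) and post-tamoxifen cells (-0.94, 4.5e-10). With numbers 4 and above its fold changes were -0.20, -0.27 and -0.31 and none passed (adjusted p = 1, 1 and 0.201). For Inpp5f the values were -0.67 (0.00295), -0.80 (0.000120) and -1.19 (6.0e-11) in numbers 1 to 3, and -0.55 (0.0908), -0.22 (1) and -0.12 (0.870) in 4 and above. Zrsr1 in post-tamoxifen cells had a value of -1.145 in numbers 1 to 3 (adjusted p = 7.7e-07) and of -0.16 in the others (0.859). Fits of a number set treated the populations of 1 number and genotype as independent samples, so these p-values may be too small. The share of all genes called within each number set is not given beside these calls. They are thus not read as a result about the members.

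Cell division transcripts moved with the same libraries. The summed level of 7 G2/M genes, none of them at 0 in any group, was 1645 to 2559 CPM in labeled and 2365 to 3591 CPM in post-tamoxifen fl/fl cells of numbers 1 to 3, against 778 to 1302 and 305 to 1070 CPM in controls of the same numbers. In numbers 4 and above it was 253 to 310 and 246 to 421 CPM in fl/fl and 220 to 222 and 134 to 153 CPM in controls. Ex-Foxp3 cells showed a smaller gap (494 to 706 against 139 to 539 CPM in numbers 1 to 3). The part of cell division in the lower Igf2r, Inpp5f and Zrsr1 values was not tested. In bulk libraries, fewer cells that read a gene and less of its RNA per cell cannot be told apart.

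**Figure D4:**
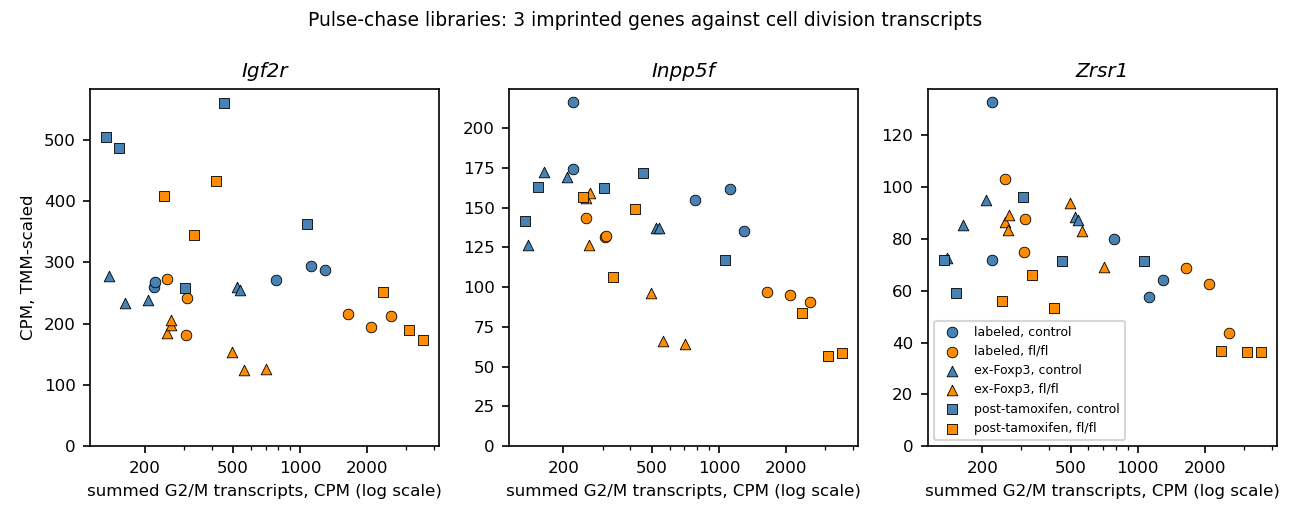
CPM of Igf2r, Inpp5f and Zrsr1 (y axes, from 0) against summed G2/M transcripts (x axis, log scale, CPM) in the 33 pulse-chase libraries; shapes are populations, blue is control and orange fl/fl. The 6 labeled and post-tamoxifen fl/fl libraries furthest to the right, at 1645 CPM and above, hold 57.0 to 96.9 CPM of Inpp5f, and the ex-Foxp3 fl/fl libraries with the lowest Igf2r (125 CPM) lie further to the left.

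The low members were summed in each library, without a test. Over all 24 of them the chimera knockouts held more at the median than controls, 12.5 CPM (9.58 to 14.1) against 8.09 (7.25 to 10.8). Labeled fl/fl cells did so too, with 8.01 CPM (3.74 to 11.02) against 5.39 (3.83 to 6.93). Ex-Foxp3 cells went the other way, with 2.97 CPM in fl/fl (1.43 to 8.90) against 4.18 (2.04 to 7.92), and post-tamoxifen cells held 2.41 CPM (1.32 to 4.04) against 2.56 (1.27 to 4.65). Ddc alone held 80 of the 166 counts in chimeric knockouts and 49 of 148 in chimera controls. In labeled cells it held 29 of 87 counts in fl/fl and 14 of 57 in controls. Cdkn1c held 29 and 17 counts in those labeled groups, and 19 and 47 in chimeric knockouts and controls. A rise across the 24 genes is thus not shown by these sums. Summed over the 11 genes of maternal methylation and paternal expression that were not counted throughout, chimera libraries held 0.604 to 2.86 CPM in controls and 0.598 to 5.41 CPM in knockouts. Labeled cells held 0.388 to 3.47 CPM in controls and 0 to 2.07 in fl/fl, ex-Foxp3 cells 0 to 1.67 and 0 to 0.822, and post-tamoxifen cells 0 to 1.36 and 0 to 0.880. For both sums the genotypes overlapped in every population. A floor of 3 counts in 1 library stands for 0.525 to 3.84 CPM, so a change within that range was not detectable at this depth.

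Single low genes are described by their counts. These genes were chosen after their values were seen, and none of them passed the test over all genes. Here and below, pulse-chase counts pool the 3 populations, with post-tamoxifen cells, which carry no Cre mark, among them. Populations of 1 number and genotype may come from 1 mouse, so the 15 and 18 libraries are not that many independent samples. The intervals given with the ratios leave out the spread between mice. Igf2, the growth factor of the H19 domain, had 27 counts in 10 of 15 pulse-chase control libraries and 6 counts in 2 of 18 fl/fl libraries, a ratio of 0.194 after depth (95% exact Poisson interval 0.0655 to 0.480, counting error only). It was at 0 in all 6 fl/fl ex-Foxp3 libraries and at 0, 1, 2, 0 and 5 counts in the controls (adjusted p = 0.410). In the chimera it had counts of 0, 3, 5 and 0 in controls and 7, 6, 0 and 0 in knockouts. Snrpn, which encodes a spliceosome protein at the Prader-Willi locus, had 16 counts in 8 of 15 control and 1 count in 1 of 18 fl/fl libraries (ratio 0.0546, 0.00130 to 0.351; labeled cells adjusted p = 0.340), and 8 against 7 counts in the chimera. Both went down with the floxed genotype in the pulse-chase counts and not in the chimera counts. The row of Snrpn overlaps that of Snurf on the same strand, and Snurf was not examined.

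Other low genes were higher by count in floxed libraries. Ddc had 80 counts in chimeric knockouts and 49 in controls (ratio 2.04, 1.41 to 2.98), and 75 and 33 in fl/fl and control pulse-chase libraries (1.98, 1.30 to 3.08), with adjusted p from 0.443 to 0.861. Kcnq1, a potassium channel, had 13 counts in 4 fl/fl libraries, 7 of them in 1 library, and 2 in controls (5.67, 1.28 to 51.8). Peg10, a domesticated retrotransposon gene, had 10 counts in 3 knockouts and 1 in controls of the chimera (12.5, 1.78 to 543; adjusted p = 0.527) and 0 in the pulse-chase. Zdbf2, whose row carries the ID of the gene Gm24513 in its locus, had 9 counts in knockouts, 8 of them in 1 library, and 0 in controls (adjusted p = 0.301). The cell cycle inhibitor Cdkn1c went the other way in the chimera, with 47 counts in controls and 19 in knockouts (ratio 0.506, 0.280 to 0.879; adjusted p = 0.661), and had 37 and 43 counts in the pulse-chase (1.01, 0.638 to 1.62). Of the remaining paternally expressed genes with paternal methylation, Dlk1 had 2 counts and Rasgrf1 12 in all.

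In each comparison of sorted populations edgeR called at most 1 of 32 members, and each count stands beside the share over all genes. Between ex-Foxp3 and labeled cells of fl/fl mice edgeR called 1 of 32 members, Cd81, lower in ex-Foxp3 cells (2.1% of all genes were called, 1.12% higher and 0.976% lower). Its ex-Foxp3 libraries were 2.96, 24.1, 15.7, 32.0, 50.1 and 51.3 CPM, and the labeled libraries of the same numbers 49.9, 48.9, 64.6, 72.3, 75.8 and 92.9 CPM, higher in 6 of 6 pairs (-1.19 ± 0.32, adjusted p = 0.0443; -1.28, 1.6e-14 with number as a block). Library 1 of the ex-Foxp3 cells was the lowest; without it the value was -0.96 (adjusted p = 0.0147). The call was lost without ex-Foxp3 2, 3 or 4 or labeled 3, 4, 5 or 6 (at most 0.112) and with the compared groups alone (0.241), and it held within numbers 1 to 3 (-1.93) and 4 and above (-0.87). Igf2r (-0.43, adjusted p = 5.6e-05) and Impact (0.55, 0.0282) were called with the block and not in the fit of all libraries without it (-0.40, 0.356 and 0.55, 0.0939); within numbers 1 to 3 both passed (-0.62, 0.000329 and 0.91, 0.0145). In controls edgeR called 0 of 32 members, with 4 at an unadjusted p under 0.05 (0.152% of all genes, 0.0792% higher and 0.0726% lower), and DESeq2 called Plagl1. With the block Cd81 (-0.77, adjusted p = 0.000293) and Plagl1, a zinc finger regulator of growth genes, (-1.54, 0.00710) were called lower, as they were without it when the compared groups were fitted alone (-0.78, 0.00250 and -1.51, 0.0236). Cd81 was 31.6, 35.5, 34.1, 31.2 and 37.7 CPM in control ex-Foxp3 and 54.7, 50.9, 62.6, 72.3 and 49.5 CPM in control labeled libraries, which did not overlap.

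Between labeled and post-tamoxifen Treg cells of fl/fl mice, edgeR called Zrsr1, higher in labeled cells (1 of 32 members; 3.09% of all genes, 1.09% higher and 2.01% lower). Labeled libraries 1 to 6 held 43.7, 68.7, 62.7, 103, 75.0 and 87.5 CPM and the post-tamoxifen libraries those given above, lower in 6 of 6 pairs (0.64 ± 0.18, adjusted p = 0.0356; 8.0e-05 with the block). The call was lost with the compared groups alone (0.0734) and without labeled 4, 5 or 6 or post-tamoxifen 1, 2 or 3 (at most 0.103), and the fold change was similar in numbers 1 to 3 (0.70, adjusted p = 0.0267) and 4 and above (0.60, 0.0153). Igf2r was called lower in labeled cells with the block (-0.39, adjusted p = 0.000333; -0.46, 0.254 without), and in numbers 4 and above alone (-0.79, 7.1e-10). In controls edgeR called 0 members, with 5 at an unadjusted p under 0.05 (4.72% of all genes, 2.29% higher and 2.43% lower), and DESeq2 called 2, Igf2r and Ube3a. Igf2r was called with the block (-0.63, adjusted p = 1.4e-09; -0.66 ± 0.21, 0.0762 without), and 4 of 5 post-tamoxifen libraries, all but number 2, were above every labeled library. It was called unblocked too without post-tamoxifen control 2 (-0.80, adjusted p = 0.0124), with a filter on low counts (0.0466) and with the compared groups alone (0.0409). The sum of myeloid markers was 127 to 344 CPM in post-tamoxifen controls 1, 3, 4 and 5, 9.51 CPM in control 2 and 4.33 to 16.2 CPM in labeled controls. In fl/fl numbers 1 to 3 the sum was 138 to 451 CPM in post-tamoxifen and 8.96 to 22.5 CPM in labeled libraries. The Igf2r fold change there was 0.015. In fl/fl numbers 4 and above the sum was 42.7 to 61.4 CPM in post-tamoxifen and 3.80 to 5.82 CPM in labeled libraries. There the Igf2r fold change was -0.79. All 5 markers were present in both post-tamoxifen groups, Cd14 was at 0 in labeled controls, and their part in the Igf2r and Zrsr1 differences was not tested. The comparisons that use the same labeled libraries share them, so their values are not independent.

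No member was called where the genotype effect was compared between populations. The test of genotype by Foxp3 loss called 0 of 32 members, with 2 at an unadjusted p under 0.05 (0% of all genes in either direction), and that of genotype by label called 0, with 5 (0.0132% of all genes, 0% higher and 0.0132% lower); DESeq2 called 0 in each. The Zrsr1 difference between post-tamoxifen and labeled cells was 0.54 ± 0.26 (adjusted p = 0.692), and in numbers 1 to 3 it was 0.97 (0.0466).

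Over all genes edgeR called 0.908% higher and 1.64% lower in the chimera, and 1.97% and 1.61% in post-tamoxifen fl/fl cells. In either direction it called 0.0066% in labeled and 0.0792% in ex-Foxp3 cells. Of 36 further imprinted genes listed for comparison, 26 were tested in each experiment. In the chimera 0 were higher and 2 lower, Phactr2 (-0.37 ± 0.11, adjusted p = 0.0266) and Pon3 (-1.995 ± 0.49, 0.00417); Phactr2 was higher in post-tamoxifen fl/fl cells (0.56 ± 0.15, 0.0209), and labeled and ex-Foxp3 cells had 0 called by edgeR, with 3 and 5 at an unadjusted p under 0.05. Among 23 genes that keep or erase methylation imprints, 21 were tested in the chimera: Smchd1, a chromatin silencer, rose (0.27 ± 0.08, adjusted p = 0.0241), and Uhrf1 and Tet2, which oxidises methylcytosine, fell (Tet2 -0.30 ± 0.09, 0.0324). Dnmt1 did not pass in any of the 4 genotype comparisons (0.03 ± 0.08 in the chimera, adjusted p = 0.889). In post-tamoxifen cells Tet3 (-0.65 ± 0.11, adjusted p = 0.000352) and Arid4a (-0.34 ± 0.09, 0.0197) fell and Naa10 rose (0.40 ± 0.12, 0.0451) in fl/fl, and labeled and ex-Foxp3 cells had 0 called by edgeR, with 0 and 3 at an unadjusted p under 0.05.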

How the data were processed

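RNA from sorted mouse Treg cells was sequenced in 41 libraries. Per the labels' protocols, RNA was extracted with AllPrep DNA/RNA Micro and prepared with SMARTer Stranded Total RNA-Seq reagents. Raw gene counts for all libraries were deposited in 1 table, and per the submitters' processing notes bcl2fastq 2.17.1.14, TopHat2 2.1.0 and mm10 were used; the counting program, its strand setting and its annotation are not given in the sources used here. Gene positions are those of the table. Of the 39 members, 29 carried the Ensembl ID that GENCODE M21 gives to their symbol and 10 the ID of another gene at that place (Zrsr1, Mcts2, Nnat, Nap1l5, Copg2, Tssc4, Gnas, Cd81, Snrpn, Zdbf2); symbol and position were followed. If strand was not used in counting, reads of Zrsr1 and Commd1, Nnat and Blcap, and Mest and Copg2 cannot be told apart where they overlap. The same holds for Nap1l5 and Herc3 and for Tssc4 and Trpm5. Mcts2 and H13, Snrpn and Snurf, and Commd1 and B3gnt2 overlap on the same strand.

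Counts were tested in edgeR 4.0.16 (R 4.3.3; TMM scaling, robust quasi-likelihood F test, two-sided, Benjamini-Hochberg adjustment over all genes, threshold 0.05) without an expression filter, in 1 fit of the 8 chimera libraries (15530 genes with a count) and 1 of the 33 pulse-chase libraries (15161 genes; its 6 groups shared the spread). CPM is the count scaled by the TMM library size. The edgeR fit without a block was tested on simulated independent libraries, with changes placed only in genes averaging at least 10 counts. That test did not cover low genes, shared mice, number sets or DESeq2. The replicates are separate samples by their labels, so p-values measure the spread between these samples. Pulse-chase genotype fits that used all 3 populations treated those of 1 number and genotype as independent. Where they come from 1 mouse, these p-values may be too small. Alternatives were RLE scaling, a filter on low counts (filterByExpr), DESeq2 1.42.0, a replicate block, the compared groups alone, library number sets, and leaving out libraries. The alternative without post-tamoxifen control 2 and fl/fl 3 was chosen after seeing the data. Calls under an alternative are given without their own share over all genes, and are not read as a result about the members. Same-numbered libraries deviated together (every correlation over 0.1) for genotype in labeled cells (0.110 to 0.328), for ex-Foxp3 against labeled cells in controls (0.158 to 0.349) and fl/fl (0.161 to 0.394), and for labeled against post-tamoxifen cells in fl/fl (0.282 to 0.485). For labeled against post-tamoxifen cells in controls (-0.00954 to 0.278) they did not all do so. Y-linked reads set control numbers 2 and 3 apart from 1, 4 and 5 in every population. They do not tell 2 from 3, or 1, 4 and 5 from each other, so the block in that comparison rests on the numbering. Libraries of 1 group differed beyond sampling noise (chi-square per degree of freedom at least 2.57).

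The genes described by library were Uhrf1, the called members and up to 4 members of each role list with the highest mean CPM, with groups of 6 mostly given by their range and median; Igf2 and Cdkn1c were described by counts. The members and lists were chosen with earlier results of these data known. Upstream sequences are from RefSeq (GRCm38.p6); Cdkn1c, H19, Impact, Kcnq1, Peg10, Sgce and Trappc9 had no entry there. Plots were made with matplotlib 3.10.9, and tables with pandas 2.3.3 in Python 3.11.15.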

Additional observations from a re-analysis of the deposited data

Results flagged for a closer look

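Of 72 groups of 4 to 6 libraries tested for a single library far from the rest, 3 were picked out, and chance picks out about 1 group in 20. Cd81 in chimera control 1 was at 103 CPM, with the other controls at 65.2 to 68.8 CPM. Impact in fl/fl ex-Foxp3 library 4 was at 33.8 CPM, with the others at 46.6 to 53.2 CPM. H13 in fl/fl labeled library 1 was at 212 CPM, with the others at 191 to 194 CPM.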

How the results depend on the processing

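The number of imprinted genes called depended on the setting. In the chimera it was 1, and 0 with DESeq2 or the filter on low counts (0 to 2 with single libraries left out). For genotype in labeled cells it was 0, and 1 with the compared groups alone, 2 in numbers 1 to 3 and 2 with the replicate block. For ex-Foxp3 cells it was 0, and 2 with the groups alone, 3 in numbers 1 to 3 and 2 with the block. For post-tamoxifen cells it was 1, and 0 with the groups alone, without controls 2 and 3, without control 2 and fl/fl 3, or in numbers 4 and above, 2 with the filter, 3 with DESeq2, 3 with the block and 4 in numbers 1 to 3 (0 to 2 with single libraries left out). Ex-Foxp3 against labeled cells gave 0 in controls (2 with the groups alone, 1 with DESeq2, 2 with the block) and 1 in fl/fl (0 with the groups alone or without control numbers 2 and 3, 3 in numbers 1 to 3, 3 with the block, 0 to 1 with single libraries left out). Labeled against post-tamoxifen cells gave 0 in controls (1 with the groups alone, the filter, the block or without control 2 and fl/fl 3, 2 with DESeq2 and in either number set, 0 to 1 with single libraries left out) and 1 in fl/fl (0 with the groups alone, 2 with the block, 4 in numbers 4 and above, 0 to 1 with single libraries left out). The test of genotype by label gave 0, and 1 in numbers 1 to 3. Over all genes the calls also moved with the setting: 396 in the chimera (184 to 500 over all alternatives), 1 in labeled (1 to 492), 12 in ex-Foxp3 (3 to 502) and 543 in post-tamoxifen cells (153 to 1698) for genotype; 23 (5 to 506) and 318 (211 to 1096) for ex-Foxp3 against labeled cells in controls and fl/fl; 716 (426 to 1413) and 469 (265 to 1040) for labeled against post-tamoxifen cells; and 0 (0 to 33) and 2 (2 to 285) for genotype by Foxp3 loss and by label. The cause of these shifts was not tested. These ranges pool the alternatives, so a member count under 1 of them has no all-gene share of its own beside it. Such counts show how the calls depend on the setting and are not read as a result about the members. In the chimera, ex-Foxp3 and post-tamoxifen genotype comparisons the numbers did not pair the libraries (correlations -0.0891 to 0.0268, 0.0238 to 0.198 and -0.0832 to 0.267), so their blocked counts are given here only.

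Fold changes that turned sign were small or split by number. Cd81 in ex-Foxp3 fl/fl turned to 0.35 in numbers 4 and above and to 0.028 without fl/fl library 1 (down to -0.44 with others left out), in post-tamoxifen fl/fl to -0.024 in numbers 4 and above, and between labeled and post-tamoxifen fl/fl cells to -0.16 in numbers 1 to 3. In the last comparison Igf2r turned to 0.015 and Impact to -0.085 in numbers 1 to 3. Between labeled and post-tamoxifen controls Commd1 turned to -0.060 in numbers 4 and above, and Zrsr1 to -0.27 in numbers 1 to 3 and -0.12 without labeled control 5 (up to 0.22 with others left out). The Zrsr1 test of genotype by label turned to -0.019 in numbers 4 and above. RLE scaling turned none of the values named.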
